A study of Mus musculus and Homo sapiens with 24 samples.

Results

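The effect of β-estradiol was examined in HepG2 cells, a human hepatoma line, that were also treated with cobalt chloride (CoCl2). Of the 24 libraries of the study, 6 served this comparison: 3 of cells given 50 μM CoCl2 (CoCl2) and 3 of cells given 50 μM CoCl2 with 25 nM β-estradiol (CoCl2+estrogen), all for 4 h. The labels name no genetic change in any HepG2 group, so the groups differed, as labelled, in these 2 agents alone. Cells had attached overnight in EMEM with fetal bovine serum and were washed; the study's general HepG2 method then has a night in serum-free medium before treatment. All libraries came from this 1 line. A gene was tested where at least 1 of the 6 libraries had a count above 5, which took in 16200 of the 28278 genes of the table. The comparison asks what estrogen does to hepatic transcripts, PROS1 (protein S) among them, when hypoxia signalling is switched on. For the same question without CoCl2, 3 control and 3 estrogen libraries (25 nM β-estradiol) were used.

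Estradiol acts through the nuclear receptors ERα (ESR1) and ERβ (ESR2), which bind DNA or tether to other factors, and through the membrane receptor GPER1, which signals by kinases. CoCl2 blocks the prolyl hydroxylases that mark HIF1α for destruction in the presence of oxygen, so HIF1α accumulates and its target genes, many of them for glycolysis and angiogenesis, are transcribed. The hepatocyte makes most clotting factors and most of the natural anticoagulants, including protein S, a cofactor of activated protein C and of tissue factor pathway inhibitor.

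Counts summed to between 13592629 and 21701479 per CoCl2 library and between 15066031 and 16866708 per CoCl2+estrogen library. The label of the line held: all 12 hepatocyte and hepatoma markers were tested and summed to between 32350 and 33090 CPM (counts scaled to a common library size by the trimmed mean of M values, not divided by gene length) in CoCl2 libraries. They summed to between 17980 and 18700 CPM with estradiol, and 11 of the 12 were lower. In bulk RNA, fewer cells of a kind and less RNA per cell cannot be told apart. Defining markers of endothelial cells (CDH5, KDR), leukocytes (PTPRC, CD3E) and fibroblasts (COL1A2, COL3A1) did not reach the count for testing. Of 8 markers per cell type, the 3 tested endothelial ones summed to 3.60 to 5.28 CPM without and 4.25 to 6.13 CPM with estradiol, and the 3 fibroblast ones to 20.4 to 30.8 and 8.49 to 9.41 CPM. The 6 leukocyte markers summed to 1109 to 1264 and 839.7 to 1034 CPM, nearly all of it LYZ, and the 6 cholangiocyte markers, led by SPP1, to 1941 to 2099 and 1428 to 1598 CPM. The 3 mammary luminal markers, led by GREB1, summed to 171 to 203 and 129 to 139.7 CPM. Their part in the results was not tested. CoCl2 replicate B stood apart, with 4.30% of its counts on ribosomal RNA genes against 0.963% to 1.42% in the other 5 libraries, and the second principal component, which held 10.3% of the variance, set it at the far end from replicate A. The labels do not say whether replicates were separate cultures, so p-values measure the spread between these libraries, which may be technical.

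Estradiol altered most of the measured transcriptome of CoCl2-treated cells. By the quasi-likelihood test of edgeR, with p-values adjusted after Benjamini and Hochberg and called at 0.05 or less, 9860 of 16200 genes were called, 60.9%. Of these, 4871 were higher (30.1% of tested genes) and 4989 lower (30.8%) with estradiol. The 3 libraries of each group did not overlap for 10664 genes, 65.8%. Most shifts were modest, with a median absolute log2 change of 0.80 among called genes, while 3754 genes (23.2%) were called and differed by over 2-fold, 1750 higher and 2004 lower. More than 4-fold were 631 higher and 589 lower genes. Without CoCl2 replicate B the count was 9973, and DESeq2 called 9247. Since estradiol moved so many genes, each list below is read against 30.1% higher and 30.8% lower over all genes tested, and counts of called members near those shares are no result about a list.

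**Figure D1:**
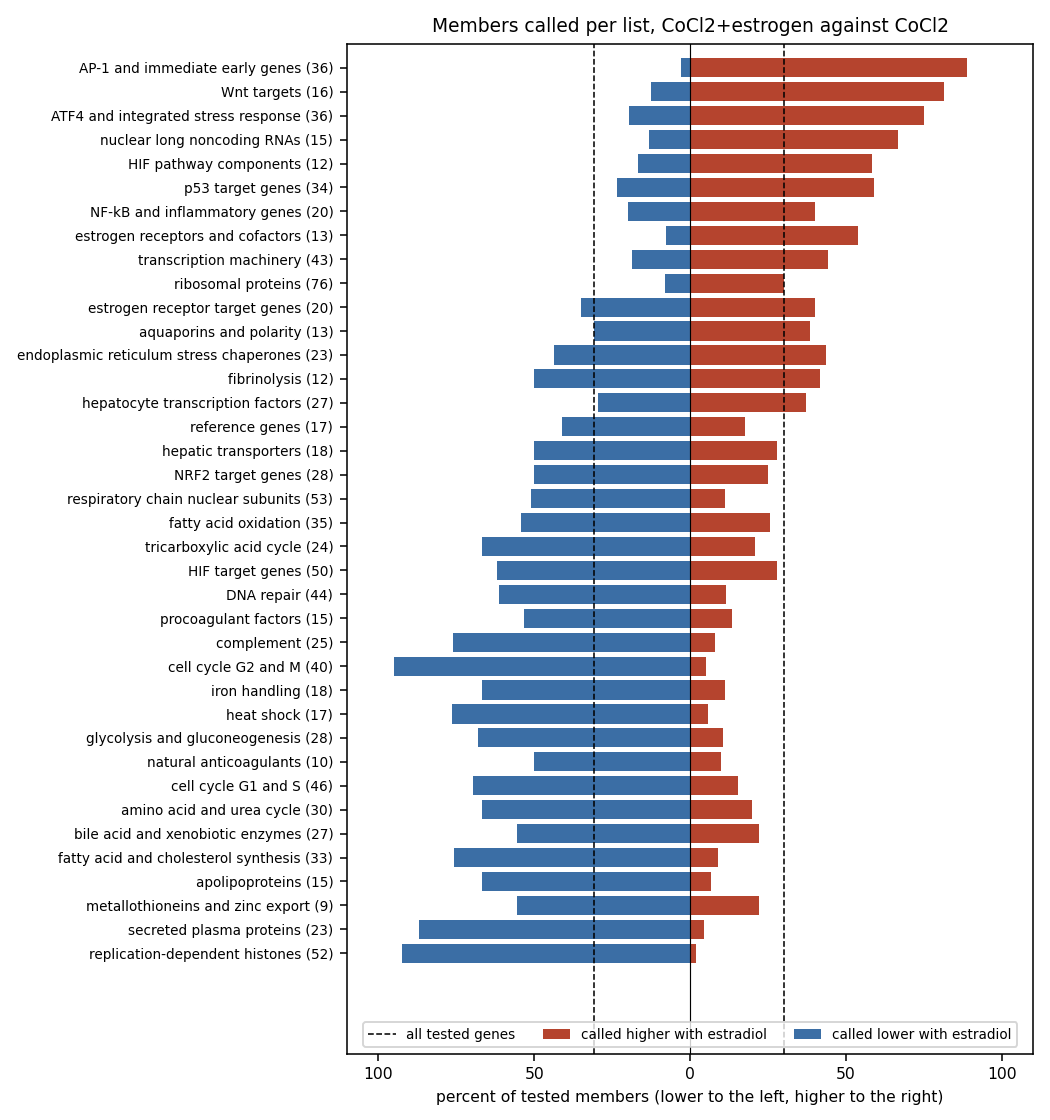
For each gene list (tested members in parentheses), bars give the percent of members called higher (right) and lower (left) in CoCl2+estrogen against CoCl2 libraries, and dashed lines mark the 30.1% and 30.8% of all tested genes. Immediate early genes sit at the top with 88.9% higher and histones at the bottom with 92.3% lower.

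The rises with the smallest p included genes of transport, secreted stress signals and drug metabolism. AQP3, a channel for water and glycerol, had 4.45, 3.45 and 5.10 CPM in the CoCl2 libraries and 479, 479 and 456 CPM in the CoCl2+estrogen libraries. Its log2 fold change was 6.74 (SE 0.11, adjusted p = 8.85e-13, edgeR), 107-fold. IGFBP1, a secreted binding protein for insulin-like growth factors, went from 167, 137 and 152 CPM to 4023, 4105 and 3754 CPM. Every estradiol library lay far above every library without it for both genes. GDF15, a circulating stress cytokine, rose from 190.0 ± 14 to 2219 ± 93.2 CPM (SD, n = 3), 11.7-fold, and ERN1, the endoplasmic reticulum stress sensor IRE1, from 19.5 ± 0.441 to 205 ± 6.13 CPM (SD, n = 3), 10.5-fold. CYP1A1, a cytochrome P450 induced through the aryl hydrocarbon receptor, had 97.4, 80.5 and 82.4 CPM without and 833, 867 and 772 CPM with estradiol. The related CYP1B1 was close to absent without estradiol, at 0.215, 0.367 and 0.0455 CPM, and reached 15.2, 15.3 and 18.1 CPM. The efflux pump gene ABCB1 rose 5.73-fold, the glutamate transporter gene SLC1A2 10.2-fold, the acyl-CoA synthetase gene ACSL5 5.64-fold, the nuclear envelope gene SYNE1 13-fold and the chondroitin sulfate enzyme gene CSGALNACT2 10.0-fold. The groups did not overlap for any of these genes, nor for 65.8% of all tested genes. The rises of smallest p were picked among genes without overlap, so their separation was fixed by the choice.

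**Figure D2:**
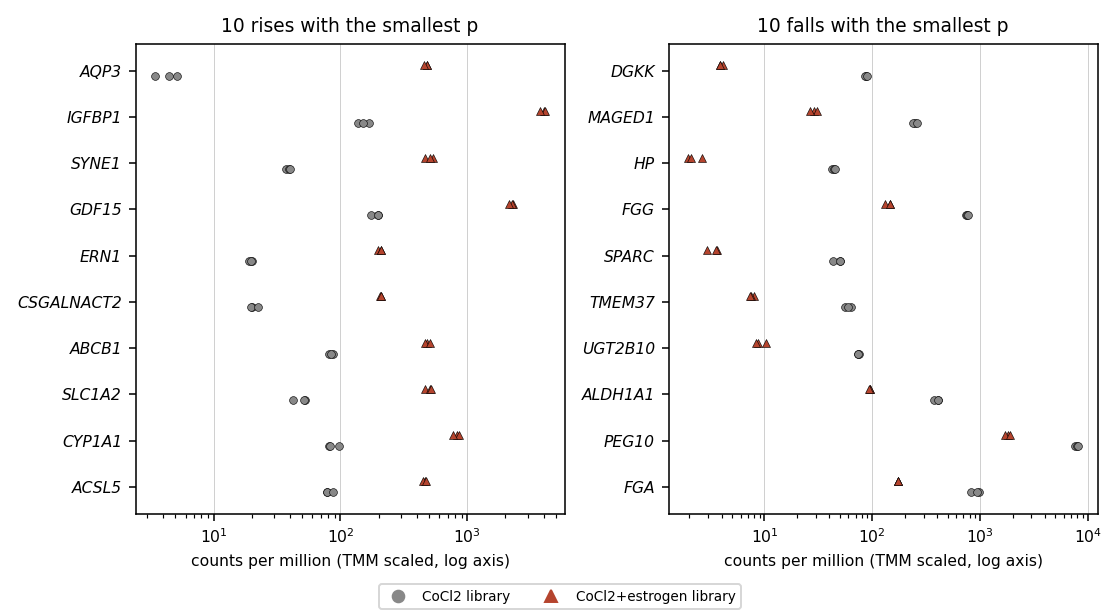
CPM on a log axis for the 10 rises (left) and 10 falls (right) with the smallest p, 1 point per library, grey circles for CoCl2 and red triangles for CoCl2+estrogen. The genes were picked for small p among genes whose groups did not overlap, so tight and separate groups follow from the choice. Mean CPM went from 4.33 to 471 for AQP3 and from 87.2 to 3.95 for DGKK.

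By size of change, several genes went from no or almost no counts to clear expression. CAPN8, a calpain protease gene, had 0 counts in every CoCl2 library and 7.91, 7.87 and 7.01 CPM with estradiol, at least 44-fold higher (computed against 3 counts per library, which covers counting error only). KLHDC7B went from 0.0536, 0.294 and 0.091 to 22.4, 24.2 and 21.6 CPM, and RAMP1, a partner of the calcitonin receptor-like receptor, from 0.161, 0.0735 and 0.137 to 13.9, 16.8 and 14.4 CPM. MRC1, the mannose receptor gene, had a mean of 0.0179 CPM without and 2.21 CPM with estradiol, and TCAP, a sarcomere gene, had 0 counts without and 0.98, 1.32 and 0.944 CPM with it. PYY2, a pseudogene, was at least 6.66-fold higher. Other large rises belong to genes that overlap a neighbour, a readthrough or a paralog, so their counts are uncertain: RFPL3S (at least 9.06-fold), P2RY11 (at least 8.32-fold), ADORA2A (at least 7.66-fold), PLGLB1 (at least 9.50-fold) and RNF103-CHMP3 (mean CPM 0.0179 without and 2.52 with estradiol). P2RY11, PLGLB1 and ADORA2A also varied widely between the estradiol libraries, at 0.131, 1.68 and 2.49 CPM, 0.0654, 3.85 and 1.01 CPM and 0.654, 3.25 and 0.0674 CPM.

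The falls of smallest p or largest size included genes of secreted liver proteins and of detoxification. DGKK, a diacylglycerol kinase gene, had 86.8, 85.8 and 88.9 CPM without and 3.86, 4.09 and 3.91 CPM with estradiol, 22-fold lower (adjusted p = 5.31e-12, edgeR). HP, haptoglobin, the plasma scavenger of free hemoglobin, went from 42.1, 43.9 and 45.5 to 1.96, 2.10 and 2.63 CPM. HAMP, which encodes hepcidin, the hormone that limits iron export, had 5.26, 4.33 and 2.96 CPM without and 0, 0 and 0.0674 CPM with estradiol, so its transcript was nearly lost. GSTA1, a glutathione transferase gene with close paralogs, went from 6.01, 5.88 and 5.96 to 0.196, 0 and 0.0674 CPM, and AS3MT, the arsenite methyltransferase gene, from 10.5, 11.7 and 10.5 to 0.719, 0.661 and 0 CPM. The fibrinogen genes FGG and FGA fell 5.38-fold and 5.28-fold. PEG10, an imprinted gene derived from a retrotransposon, fell from 7859 ± 302 to 1802 ± 96.3 CPM (SD, n = 3), and SPARC, a matrix glycoprotein gene, from 48 ± 3.85 to 3.37 ± 0.369 CPM (SD, n = 3). MAGED1 fell 8.74-fold, TMEM37 7.82-fold, ALDH1A1, a retinaldehyde dehydrogenase gene, 4.20-fold, and UGT2B10, a glucuronosyltransferase gene with close paralogs, 8.14-fold. Lower-count falls were TNNI2 (at least 5.76-fold lower, with 0 counts in every estradiol library), CD248, ERP27, LSP1, SSTR3, LOC100507389 and the transporter gene SLC22A7, which had mean CPM from 1.03 (LOC100507389) to 4.13 (ERP27) without estradiol and from 0.0218 (CD248) to 0.108 (ERP27) with it. With so few counts left, the fitted size of these falls, and that of HAMP, depends on the prior count and is no bound. The histone genes H2BC14 and H2AC16 complete the 12 largest falls, at -4.76 and -4.59.

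PROS1, the protein S gene, had 73.2, 64.7 and 69.5 CPM in CoCl2 libraries and 34.1, 30.6 and 30.9 CPM in CoCl2+estrogen libraries. All estradiol libraries were below all libraries without it. PROS1 fell by 1.12 on the log2 scale (SE 0.09, 95% interval -1.31 to -0.93, adjusted p = 1.77e-07, edgeR), 2.17-fold, and by 1.16 without CoCl2 replicate B. HIF1A, the gene of HIF1α, had 353, 419 and 413 CPM without and 285, 264 and 293 CPM with estradiol, a log2 fold change of -0.49 (adjusted p = 9.38e-05, edgeR). The size of the PROS1 difference depended on the gene it was set against. GAPDH, the reference of the study's RT-qPCR, itself fell from 1941 ± 127 to 1056 ± 74.9 CPM (SD, n = 3), a log2 fold change of -0.88, and ACTB fell by 0.88, whereas EEF2, an elongation factor gene, rose by 0.44. The ratio of PROS1 to GAPDH counts was 3.69%, 3.60% and 3.41% without estradiol and 3.04%, 2.86% and 3.17% with it, which put PROS1 at 84.7% of its level in CoCl2 cells (two-sided p = 0.1 by exact permutation, as small as 3 against 3 can give). Set against ACTB the value was 84.9%, and against EEF2 33.9%, with the same exact p of 0.1. Of 17 reference genes in common use, 3 were higher and 7 lower, with a median log2 change of -0.07, which was 0.0060 without CoCl2 replicate A. TUBB, a tubulin gene, fell by 1.78, PGK1 by 1.11, and EEF1A1 rose by 0.46.

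Several genes of anticoagulants and of clotting factors were called lower. Of 10 tested natural anticoagulants, 5, PROS1 included, were lower and 1 higher, with a median log2 change of -0.78 against -0.0027 over all tested genes. SERPINA5 had 434, 329 and 379 CPM without and 134, 142 and 125 CPM with estradiol. The list counts SERPINA5 as an anticoagulant, although it is the protein C inhibitor. Antithrombin (SERPINC1) had 13.9, 13.1 and 14 CPM without and 5.16, 4.75 and 4.72 CPM with estradiol. The protein Z-dependent inhibitor SERPINA10 had 31.1, 32.2 and 35 and 11, 12.7 and 12.9 CPM. No library of these 3 genes crossed between groups. Heparin cofactor II (SERPIND1) fell by 0.81 on the log2 scale. TFPI, the tissue factor pathway inhibitor for which protein S is a cofactor, rose by 0.23 (adjusted p = 0.0102, edgeR), from 461, 488 and 477 CPM to 567, 519 and 583 CPM. PROC, protein C, had 61.8, 58.2 and 54.3 CPM without and 53.5, 57.4 and 53.1 CPM with estradiol, a log2 fold change of -0.09 with a 95% interval of -0.28 to 0.10, and PROZ, PROCR and TFPI2 were not called.

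Of 15 procoagulant genes 8 were lower and 2 higher. The 3 fibrinogen chains moved together, FGA from 977, 828 and 943 to 172, 174 and 175 CPM, FGG from 746, 757 and 776 to 147, 132 and 145 CPM and FGB from 352, 397 and 372 to 134, 123 and 135 CPM. On the log2 scale FGA fell by 2.40, FGG by 2.43 and FGB by 1.51. Factor VII (F7) fell by 1.54, factor X (F10) by 0.64, prothrombin (F2) by 0.39, and F13B by 1.09. Kininogen (KNG1), at low counts, fell from a mean of 1.76 to 0.0892 CPM. Going the other way, factor XI (F11) had 26.9, 32.7 and 29.7 CPM without and 43.8, 42.4 and 44.1 CPM with estradiol, and tissue factor (F3), which starts the extrinsic pathway, 9.55, 9.84 and 10.6 and 15.7, 14.2 and 13.1 CPM. Factor V (F5) had a log2 fold change of -0.08 (95% interval -0.24 to 0.09) and F12 of 0.07. Genes of fibrinolysis split, 5 higher and 6 lower of 12. α2-Macroglobulin (A2M) rose by 0.66, and S100A10, which forms a plasminogen receptor with ANXA2, by 0.52. SERPINB2, an inhibitor of plasminogen activators, with 0, 0 and 0.091 CPM without estradiol, reached 1.24, 1.68 and 2.29 CPM. CPB2, the carboxypeptidase that protects fibrin, fell by 1.34, α2-antiplasmin (SERPINF2) by 1.23, the plasminogen receptor subunit ANXA2 by 1.51, plasminogen (PLG) by 0.62 and urokinase (PLAU) by 0.58, the last not called without CoCl2 replicate A (adjusted p = 0.0696, edgeR).

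**Figure D3:**
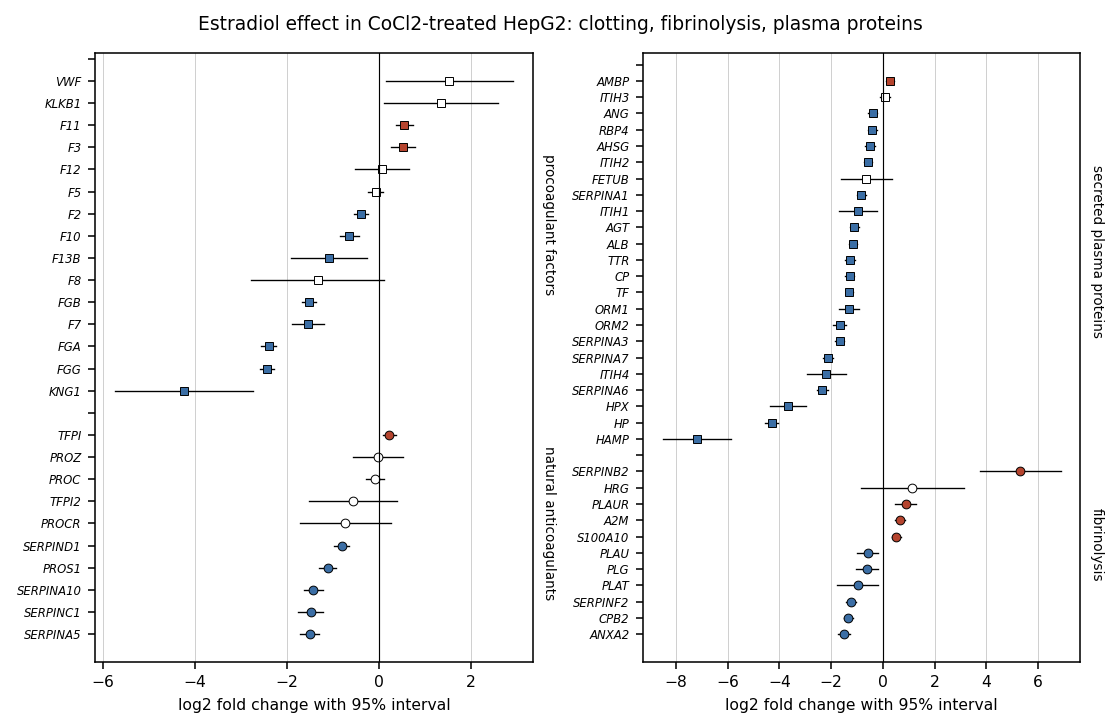
Log2 fold change of CoCl2+estrogen over CoCl2 with its 95% interval for clotting genes (left) and for fibrinolysis and plasma protein genes (right), red for called higher, blue for called lower and white for not called. PROS1 at -1.12 lies between SERPIND1 at -0.81 and SERPINA10 at -1.43, and HAMP, at a fitted -7.18, is the lowest of the plasma proteins.

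The fall reached most genes of secreted liver proteins. Of 23 plasma protein genes 20 (87%) were lower and 1 higher, with a median of -1.26. Albumin (ALB) had 7187, 5946 and 6483 CPM without and 2964, 2875 and 2899.6 CPM with estradiol, transferrin (TF) 2142, 1952 and 2224 and 879, 839 and 861 CPM, and transthyretin (TTR) 55.3, 57.8 and 62.1 and 27.1, 22.2 and 23.7 CPM. Each of these carriers was lower in all 3 estradiol libraries. The hormone carriers SERPINA7 (thyroxine) and SERPINA6 (cortisol) fell by 2.13 and 2.34, the acute phase genes SERPINA3 and ORM2 by 1.67 and 1.67, and angiotensinogen (AGT) by 1.11. ORM2 and ORM1 are near-identical copies between which reads could have been split. AMBP, which encodes α1-microglobulin and bikunin, was the exception and rose by 0.28. Complement genes were lower for 19 of 25, with a median of -0.65: complement factor I (CFI) went from 139.5, 146 and 156 to 46.4, 42.8 and 44.3 CPM, and factor B (CFB), C1S and C4BPA fell by 1.41, 2.02 and 1.44. C4BPA is the α chain of C4b-binding protein, which carries protein S in plasma. The study relates this carriage to the β chain, stating that mice without it in plasma have mostly free protein S. CD55, a membrane brake on complement, went the other way, from 11.3, 11.5 and 11 to 108, 98.3 and 108 CPM, and MASP1 rose by 0.81. Among 15 apolipoprotein genes 10 were lower, led by APOH (-1.51), APOL1 (-1.95), APOC3 (-2.72) and the transfer protein gene MTTP (-1.21), and APOM alone was higher (0.48). APOB, which had the most counts of the 12 hepatocyte markers, averaged 14410.4 ± 922 CPM without and 8988 ± 284 CPM with estradiol (SD, n = 3).

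Transcription factors of the hepatocyte did not shift in a single direction, with 10 of 27 higher, 8 lower and a median of -0.03. CEBPA had 108, 67.1 and 84.3 CPM without and 15.6, 14.5 and 13.9 CPM with estradiol, and HNF4A 593, 529.7 and 602 and 276, 273 and 262 CPM. The bile acid receptor FXR (NR1H4) and ONECUT1 fell by 1.36 and 1.24. FOXA2, a pioneer factor, rose from 49.5, 54.4 and 54.4 to 134, 128 and 119 CPM, HNF4G, the paralog of HNF4A, from 12.3, 10.8 and 13.8 to 45.1, 42.7 and 54.6 CPM, and CEBPG and TBX3 by 1.37 and 1.02. FOXA3 had a log2 fold change of 0.00 (95% interval -0.21 to 0.22) and was not called. Of 27 enzymes of bile acid and drug metabolism 15 were lower and 6 higher. HSD17B2, which converts estradiol to estrone, had 12.5, 11.2 and 11 CPM without and 53.5, 52.9 and 51.3 CPM with estradiol. SULT2A1, a steroid sulfotransferase gene, went down from 49.7, 45.1 and 47.8 to 9.80, 9.68 and 8.02 CPM, and ADH6 fell by 1.74. UGT1A1, whose counts cannot be told apart from those of other genes of its locus, rose by 3.84. Transporter genes were higher for 5 and lower for 9 of 18: SLC51B, a subunit of the bile acid exporter, rose by 2.48 and ABCB4 by 0.62, while ABCC6, SLCO2B1 and ABCG8 fell by 1.89, 2.02 and 1.13. SLC22A9, at 0.82, was called higher but not without CoCl2+estrogen replicate C (adjusted p = 0.0637, edgeR).

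Transcripts of the nuclear estrogen receptors were scarce, and those of GPER1 were not. ESR1 had 0.483, 0.514 and 0.501 CPM without and 1.90, 2.28 and 1.48 CPM with estradiol, a log2 fold change of 1.91 (SE 0.37, adjusted p = 0.000556, edgeR). ESR2 stayed under 1 CPM in every library, at 0.0536, 0.147 and 0.364 and 0.588, 0.3 and 0.135 CPM, and was not called (log2 fold change 0.77, 95% interval -0.96 to 2.49). GPER1 had 36.8, 33.4 and 38.5 CPM without and 47.3, 45.7 and 40.6 CPM with estradiol, a rise of 0.30. The ESR1 transcript was thus under 3 CPM in these 6 libraries, and the GPER1 groups were adjacent without touching. Of 13 receptor and cofactor genes 7 were higher, with ESRRA, an orphan relative of ERα, at 22.7, 15.4 and 16.6 and 49.7, 51.1 and 46.4 CPM, and the coactivator NCOA1 at 0.67, and the repressor PHB2 was lower at -0.62. Genes that ERα induces in breast cancer cells were close to evenly divided, 8 higher and 7 lower of 20, with a median of 0.13 that was -0.20 when all 12 HepG2 libraries were fitted and 1 more gene was tested. TFF1 and PGR, the classical markers of ERα activity, did not reach the count for testing. GREB1, another classical target, fell from 201, 170.3 and 186 to 125, 136 and 129 CPM, PDZK1 fell by 1.85, XBP1 by 0.62 and SIAH2 by 0.72. MYC rose from 234, 236 and 254 to 799.8, 774 and 752 CPM, AREG, the growth factor amphiregulin, from 69.9, 95.5 and 86.3 to 409, 367 and 359 CPM, IGFBP4 by 0.78 and CCND1 by 0.49.

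On the HIF axis, estradiol lowered HIF1A and raised EPAS1, the gene of HIF2α, from 311, 288 and 342 to 526, 526 and 532 CPM. The coactivators CREBBP and EP300 rose by 1.04 and 0.69, the hydroxylase gene EGLN2 by 0.54, and EGLN1, the main oxygen sensor and itself a HIF target, fell by 0.32. HIF1AN and ARNT, at 0.01 and -0.04, were not called. Of 50 HIF target genes, 31 (62%) were lower and 14 (28%) higher, and the median was -0.53. The lower side held glycolytic and matrix genes. PPP1R3C, a glycogen targeting subunit, went from 40.7, 33 and 38.8 to 2.55, 2.76 and 2.36 CPM and PFKFB4, a regulator of glycolytic flux, from 85.6, 70.6 and 86.6 to 11, 13 and 12 CPM. GPI, P4HA1 (a collagen prolyl hydroxylase) and LDHA fell by 1.45, 1.44 and 1.20, and CA9 and EPO, which are transcribed at low levels here, by 2.83 and 4.00. On the higher side were VEGFA, the angiogenic growth factor, with 128, 134 and 147 CPM without and 393, 413 and 385 CPM with estradiol, RORA at 1.25, ADM at 0.95, and STC2, from 178, 167 and 164 to 268, 277 and 269 CPM. Called HIF targets thus went both ways, with the groups apart for 45 of 50 genes, against 65.8% of all tested genes. Over 28 genes of glycolysis and gluconeogenesis 19 were lower and 3 higher (median -0.78). PFKL fell by 1.68, while PFKFB2, HK1 and the glucose transporter SLC2A1 rose by 0.63, 0.71 and 0.30.

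Immediate early genes, which respond to kinase signals within minutes, rose almost as a body. Of 36 tested, 32 (88.9%) were higher, with a median of 1.63. ATF3 had 8.42, 8.30 and 10.1 CPM without and 106, 103 and 106 CPM with estradiol, EGR1 20.1, 27.2 and 24.3 and 156, 129 and 147 CPM, and FOS 2.47, 1.25 and 2.59 and 9.09, 8.35 and 7.48 CPM. The phosphatase genes that restrain ERK signalling rose with them, DUSP6 from 59.4, 67.7 and 71.6 to 447, 411 and 430.4 CPM, DUSP4 by 3.18 and DUSP5 by 3.54. JUNB, KLF4 and IER3 rose by 1.96, 3.97 and 1.99. Only BTG2, an antiproliferative gene that is also a p53 target, was lower, by 0.94, and JUND, SGK1 and KLF2 were not called.

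The integrated stress response, in which ATF4 directs amino acid supply and later cell death genes, was also mostly higher, 27 of 36 genes against 7 lower (median 0.78). PPP1R15A, the phosphatase subunit that ends the response, went from 31.2, 36.4 and 38.5 to 336, 309 and 293 CPM. ATF4 itself rose by 0.92, DDIT3 (CHOP) by 2.04, TRIB3 by 2.07 and asparagine synthetase (ASNS) by 1.84. DDIT4, an inhibitor of mTORC1, fell from 199, 154 and 179.5 to 80.7, 83.6 and 77.1 CPM, and PSPH, PCK2 and WARS1 fell by 1.05, 0.69 and 0.53. Genes of the other arms of endoplasmic reticulum stress were split evenly, 10 higher and 10 lower of 23. Besides ERN1, DNAJB9 rose from 26.9, 22.8 and 25.5 to 122, 110.3 and 129.8 CPM, ERO1B by 1.63 and EDEM1 by 0.81, whereas the folding proteins PDIA4, CALR, CRELD2 and PDIA6 fell by 1.67, 1.25, 1.78 and 0.85. Cytosolic heat shock genes were lower for 13 of 17: HSPB1, HSP90AA1, HSPE1 and HSPA8 fell by 2.00, 1.17, 1.41 and 1.36, and HSPA6, at 0.322, 0.0735 and 0.091 and 0.719, 1.08 and 0.27 CPM, was called higher although its libraries overlapped, and the call was lost without CoCl2 replicate B or C or CoCl2+estrogen replicate A or B (adjusted p from 0.0526 to 0.137, edgeR).

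Other stress programmes gave mixed counts. Targets of p53 were higher for 20 and lower for 8 of 34, with CDKN1A (p21) from 140.1, 122 and 129 to 362, 352 and 314 CPM, BTG1, PLK2 and PMAIP1 higher by 2.22, 2.23 and 2.60, and FDXR, SESN1 and SPATA18 lower by 1.26, 1.24 and 0.73. Inflammatory genes were higher for 8 of 20, among them the chemokine CCL20, from 15.9, 22.6 and 15.9 to 95.2, 73.1 and 90.7 CPM, CSF1 at 1.58, SOCS3 at 2.27 and TNFAIP3 at 0.58, while IL32, NFKBIA, REL and NFKB1 fell by 0.59, 0.29, 0.37 and 0.33. Genes of the antioxidant factor NRF2 were lower for 14 and higher for 7 of 28. GCLC, the limiting enzyme of glutathione synthesis, had 199.7, 203 and 209 CPM without and 436, 441 and 472 CPM with estradiol, the cystine transporter SLC7A11, NQO1 and KEAP1 rose by 0.70, 0.41 and 0.44, and the pentose phosphate enzyme TALDO1 fell by 1.64, with PIR at -1.81. Metallothioneins MT1X, MT1G, MT1E and MT1F, close paralogs that share reads, fell by 2.68, 3.49, 1.95 and 3.18, and the zinc transporters SLC30A1 and SLC39A10 each rose by 1.09.

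Proliferation genes were lower. All 40 genes of G2 and mitosis were called, 38 lower and 2 higher, with a median of -0.66. TOP2A, the topoisomerase that untangles chromosomes, had 633, 635 and 657 CPM without and 297, 284 and 304 CPM with estradiol, and PLK1, a mitotic kinase, 215, 224 and 244 and 91.5, 75.8 and 72.9 CPM. The kinesin KIF11 and the checkpoint kinase TTK fell by 1.27 and 1.23. The exceptions were ECT2, a regulator of cytokinesis, which rose from 93.8, 95.6 and 103 to 311, 321 and 337 CPM, and WEE1, the kinase that holds cells in G2, which rose by 0.91. In the list of G1 and S genes 32 of 46 were lower (median -0.79). SKP2, which targets p27 for destruction, went from 112, 105 and 114 to 15, 14 and 17.6 CPM, and MYBL2, MCM5 and RRM2 fell by 1.94, 1.93 and 1.59, while E2F3, CDK6 and ORC6 rose by 0.80, 0.66 and 0.62. DNA repair genes were lower for 27 of 44, with LIG1 at -1.79, EXO1 at -1.78, BRIP1 at -1.47 and RAD54L at -1.26, and LIG4, ERCC1, ERCC4 and RAD1 higher by 0.65, 0.53, 0.37 and 0.30.

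Histone genes showed the lowest median of all lists, -2.21, with 48 of 52 lower. H1-5 went from 66.3, 77.9 and 58.4 to 4.51, 3.25 and 3.84 CPM, H2BC17 from 171, 155 and 150.4 to 30.7, 26.2 and 26.3 CPM and H2BC14 from 49.2, 91.4 and 61.2 to 2.88, 1.80 and 2.76 CPM. H2BC13 and H3C4 fell by 3.01 and 2.25. Histone genes are near-identical copies in clusters, so the value of any single gene is uncertain. The libraries were made from rRNA-depleted total RNA, which keeps transcripts without a poly(A) tail.

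In intermediary metabolism the lists for lipid and amino acid handling were mostly lower. Fatty acid and cholesterol synthesis had 25 of 33 genes lower (median -0.83), with ACACB at -1.93, TM7SF2 at -2.71, FADS1 at -1.32 and MVD at -1.52. In fatty acid oxidation 19 genes were lower and 9 higher of 35: catalase (CAT) went from 119, 101 and 113 to 17.5, 20.5 and 20.2 CPM, the peroxisomal enzyme EHHADH fell by 2.84, HADH by 1.97 and ACAA1 by 1.64, and ACSL1, which activates fatty acids, rose by 1.92. Of 30 amino acid and urea cycle genes 20 were lower. MAT1A, the methionine adenosyltransferase of adult liver, averaged 109 ± 7.66 CPM without and 16.9 ± 1.77 CPM with estradiol (SD, n = 3), and GLUD1 fell by 1.68. GOT1 and SHMT2 rose by 1.14 and 0.85. In the tricarboxylic acid cycle 16 of 24 genes were lower, with IDH2 from 81.1, 73.4 and 81.3 to 12.6, 11.6 and 10.0 CPM, IDH1 at -1.45 and SUCLG2 at -1.65, and OGDH, IDH3A and SDHD rose by 0.43, 0.36 and 0.30. DLST, at 0.28, was called higher but not without CoCl2+estrogen replicate B (adjusted p = 0.0592, edgeR). Nuclear subunits of the respiratory chain were lower for 27 and not called for 20 of 53, and NDUFB3 and ATP5F1D led the falls at -1.33 and -1.39.

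Of 76 ribosomal protein genes 47 were not called, 23 were higher and 6 lower, with a median of 0.14; 19 were called without CoCl2 replicate C and 19 without CoCl2+estrogen replicate A. RPL18 and RPL5 rose by 0.41 and 0.29, and RPL3 and RPL12 fell by 0.67 and 0.65. Transcription machinery genes were higher for 19 and lower for 8 of 43: the elongation factors ELL2, ELL and AFF4 rose by 1.06, 1.39 and 0.91 and the polymerase subunits POLR2E and POLR2I fell by 1.00 and 1.44. In the list of long noncoding RNAs, labelled nuclear although location was not measured, 10 of 15 were higher and 2 lower. MIR22HG went from 7.99, 7.20 and 9.47 to 44.7, 46.9 and 44.7 CPM, and the snoRNA hosts ZFAS1, GAS5 and SNHG1 rose by 1.61, 1.63 and 0.94. The lower ones were HULC, by 1.04, and H19, by 1.99 from a mean of 0.354 CPM. HepG2 carries a stabilizing β-catenin mutation, and Wnt target genes were higher for 13 of 16 (median 0.80). NKD1, a feedback inhibitor, had 932, 894 and 965 CPM without and 2211, 2334 and 2269 CPM with estradiol, LGR5 188, 173 and 192 and 373, 372 and 385 CPM, and DKK1, a secreted antagonist, fell by 0.48. NOTUM was called lower (-0.27) although its libraries overlapped. Iron genes were lower for 12 of 18. Among them the BMP targets ID1, ID2 and ID3 fell by 2.75, 1.48 and 2.01 beside HAMP, and SMAD7, another target of this pathway, rose by 0.47, while BMP6, a hepcidin inducer, rose by 1.22 from a mean of 1.17 CPM. In the list of aquaporin and polarity genes, E-cadherin (CDH1) went from 74, 77.3 and 86.3 to 15.4, 17.7 and 16.6 CPM, and occludin (OCLN) from 81.1, 74 and 84.2 to 168, 155 and 184 CPM.

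To set these changes beside those of estradiol alone, the same contrast was fitted in the 3 estrogen and 3 control libraries, which share no library with the comparison above. Of 15800 genes tested in both, 8891 were called in both, 8853 in the same direction and 38 in opposite directions. These 8853 were 89.8% of the genes called with CoCl2 and 78.9% of the genes called without it. Across genes, which are not independent replicates, the log2 effects correlated with Pearson's r = 0.888 and Spearman's rho = 0.895, as a description. An interaction term, fitted across the 12 HepG2 libraries, tested the difference itself. Of 16681 genes, 967 were called (5.8%), 350 positive (2.1%) and 617 negative (3.7%), where negative means a lower log2 effect with CoCl2. By absolute size, the effect of estradiol was nearer 0 with CoCl2 for 783 of the 967 genes and further from 0 for 184. Among these same 967 genes, the effects with and without CoCl2 had opposite signs for 168. PROS1 had an interaction of -0.04 (SE 0.12, adjusted p = 0.908, edgeR), so a difference between its log2 effects of -1.05 without and -1.10 with CoCl2 was not detected. No gene of the natural anticoagulant, procoagulant, complement or plasma protein lists was called either. The fibrinolysis list had 3 negative and 0 positive interactions of 12 genes, and the apolipoprotein list 1 positive and 1 negative of 15.

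**Figure D4:**
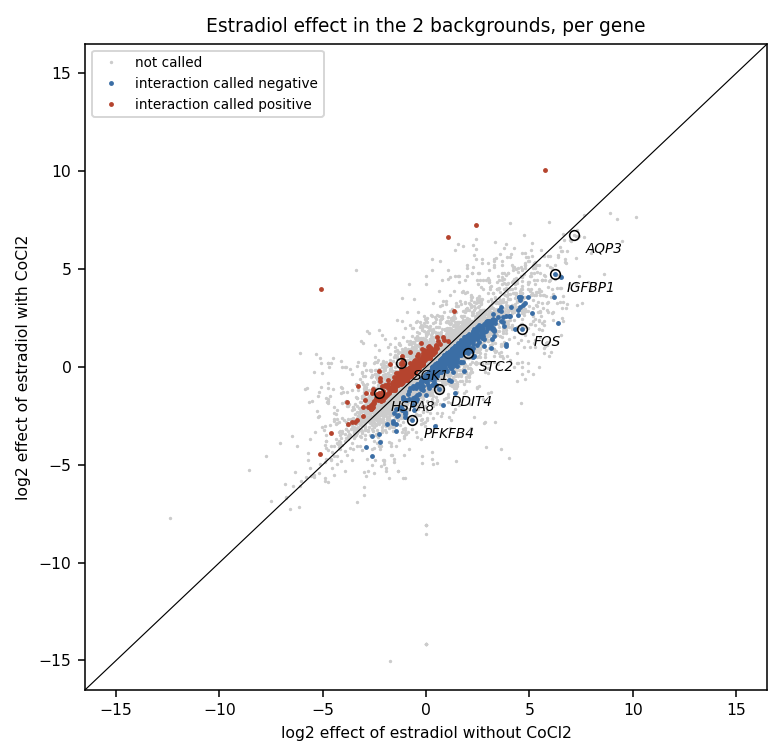
Each point is a gene at the log2 effect of estradiol without CoCl2 (x axis) and with CoCl2 (y axis), grey where the interaction was not called, blue where it was negative (617 genes) and red where it was positive (350 genes), with the diagonal marking equal effects. Most points lie along the diagonal, and FOS, at 4.63 and 1.95, lies well below it.

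Interactions called negative, 3.7% over all genes, and positive, 2.1%, were spread unevenly over the lists. Of 36 immediate early genes 21 had a negative and 1 a positive interaction, and the negative counts were 20 of 34 for p53 targets, 15 of 36 for the ATF4 list, 24 of 50 for HIF targets and 24 of 53 for histones. The heat shock list had 5 positive and 0 negative of 17, and the endoplasmic reticulum chaperone list 5 positive and 1 negative of 23. In the order control, CoCl2, estrogen and CoCl2+estrogen, scaled over all 12 libraries, FOS had 0.989 ± 0.102, 2.11 ± 0.749, 24.7 ± 2.10 and 8.45 ± 0.81 CPM (SD, n = 3 each). EGR1 had 23.3 ± 1.08, 23.9 ± 3.57, 369.6 ± 8.03 and 146 ± 14.2 CPM, and DUSP1, a MAP kinase phosphatase gene, 18 ± 1.12, 26.8 ± 0.856, 178 ± 10.7 and 80.3 ± 4.42 CPM. All 3 rose with estradiol in both settings and reached a lower level with CoCl2+estrogen than with estrogen. The stress genes PPP1R15A and DDIT3 showed the same order, PPP1R15A at 26.2 ± 1.68, 35.4 ± 3.85, 685 ± 30.3 and 318 ± 21.9 CPM and DDIT3 at 5.25 ± 0.115, 5.22 ± 0.367, 72.4 ± 5.57 and 21.8 ± 3.27 CPM, and so did CDKN1A at 112 ± 7.06, 130.3 ± 9.23, 615 ± 32.7 and 349 ± 25.1 CPM. The histone gene H2AC16 fell further with CoCl2, at 13.5 ± 3.30, 15.2 ± 2.72, 2.23 ± 0.345 and 0.621 ± 0.258 CPM.

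The HIF targets PFKFB4, DDIT4 and PPP1R3C showed another order over the 4 groups. By mean ± SD, PFKFB4 had 12.1 ± 1.32, 81 ± 9.17, 7.58 ± 0.664 and 12.2 ± 1.00 CPM, DDIT4 49.7 ± 4.39, 178 ± 22.9, 76.6 ± 7.59 and 81.9 ± 3.13 CPM and PPP1R3C 11.9 ± 0.729, 37.5 ± 4.06, 2.56 ± 0.441 and 2.60 ± 0.201 CPM. All 3 were highest with CoCl2 alone, and their estrogen and CoCl2+estrogen groups lay closer together than their control and CoCl2 groups. DDIT4 had estradiol effects of 0.62 without and -1.12 with CoCl2 on the log2 scale, an interaction of -1.75 (adjusted p = 4.35e-07, edgeR). VEGFA, STC2 and RORA were raised by estradiol in both settings: VEGFA had 69.7 ± 3.10, 136 ± 10.2, 449.9 ± 13.5 and 404 ± 14.1 CPM, STC2 79.9 ± 3.50, 169.8 ± 6.95, 321 ± 10.4 and 276 ± 4.51 CPM and RORA 18.7 ± 1.71, 41.9 ± 3.59, 110.5 ± 3.15 and 101 ± 3.64 CPM. Their estrogen and CoCl2+estrogen groups differed less than their control and CoCl2 groups did. Over the 50 HIF targets the median estradiol effect was 0.0041 without and -0.50 with CoCl2.

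**Figure D5:**
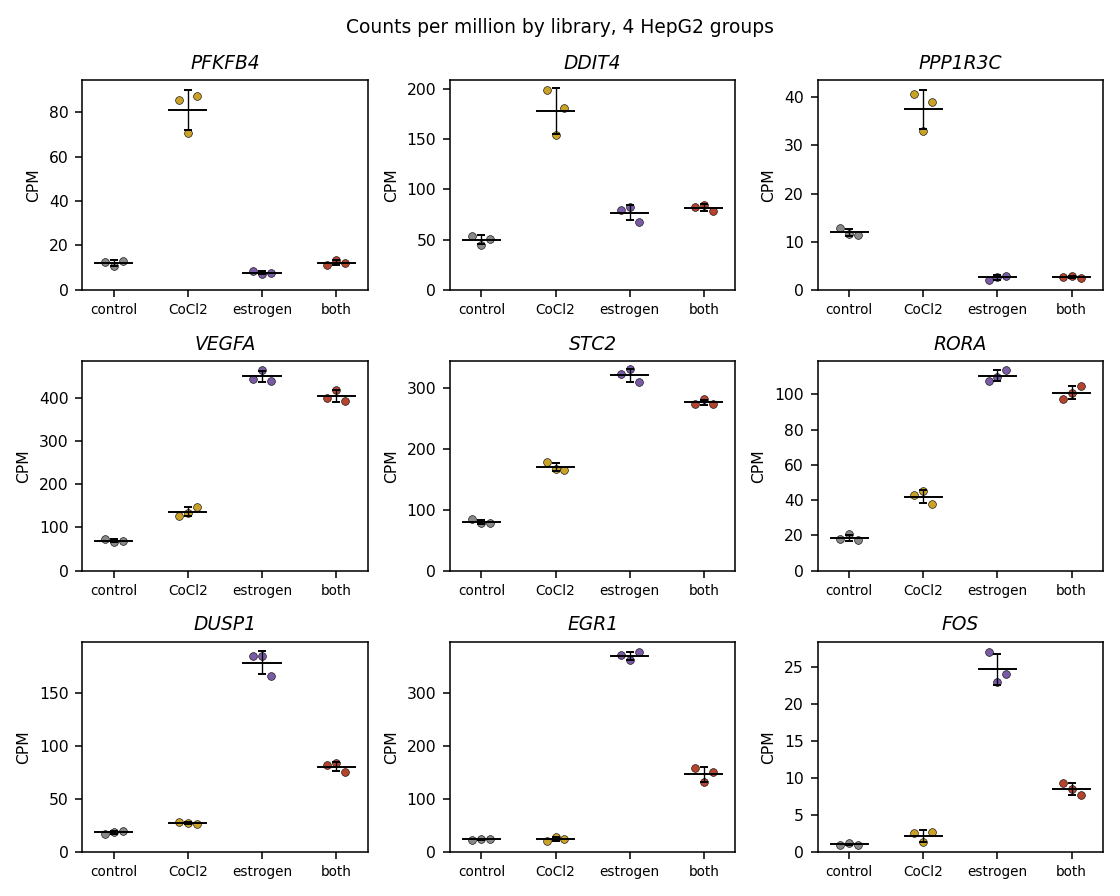
CPM of 9 genes in the control, CoCl2, estrogen and CoCl2+estrogen (both) groups, 1 point per library, with the mean as a line and the SD as a bar (n = 3). PFKFB4, DDIT4 and PPP1R3C peak in the CoCl2 group, VEGFA, STC2 and RORA are high in both estradiol groups, and DUSP1, EGR1 and FOS peak in the estrogen group.

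Among called genes whose groups did not overlap either with or without CoCl2 and that reached 1 CPM in a group, the most negative interactions belonged to KLRK1, PRICKLE1, FOS, IL12RB2, FOXD1 and ESR1. ESR1 had 0.192 ± 0.0919, 0.5 ± 0.0158, 3.87 ± 1.10 and 1.92 ± 0.403 CPM in the order control, CoCl2, estrogen and CoCl2+estrogen, so its rise was 4.30 without and 1.93 with CoCl2; the ESR1 interaction was not called without control replicate A (adjusted p = 0.0541, edgeR). The most positive ones belonged to TCAP, CAPN8, ENPP7, ETNPPL, SNHG4 and GPR162. The calls of TCAP, CAPN8, ENPP7, ETNPPL, GPR162, FOXD1, IL12RB2 and PRICKLE1 were also lost under at least 1 alternative. RNF103-CHMP3, whose libraries overlapped without CoCl2, had a called interaction of 5.59. SNHG4, a snoRNA host gene, had 12 ± 1.36, 6.74 ± 0.315, 5.32 ± 0.535 and 9.77 ± 0.735 CPM in the same order, lower with estradiol alone and higher with estradiol on top of CoCl2. TCAP and CAPN8 had 0 counts in the CoCl2 group, so the size of their interaction depends on the prior count of the fit and is no bound. SGK1, a kinase gene of the early response list that was not called with CoCl2, had 75.6 ± 6.72, 47 ± 5.33, 32.3 ± 1.89 and 54.1 ± 1.47 CPM, and HSPA8, the constitutive heat shock protein gene, 1708 ± 101, 1669.8 ± 187, 354 ± 16.7 and 659.7 ± 53.4 CPM.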

How the data were processed

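RNA of HepG2 cells had been extracted with RNeasy kits, depleted of rRNA (Illumina Stranded Total RNA with Ribo-Zero Plus) and sequenced in pairs. Per the study's methods and processing notes, the authors used Bowtie2 2.2.5 to take out reads of rDNA, mitochondrial rDNA and tRNA, aligned the rest with STAR 2.7.8a and quantified RefSeq transcripts in Partek Flow. Builds hg38 and mm10 were listed for the series. Whether counting used strand is not given in the sources used here, so antisense and overlapping genes are uncertain. The deposited values were estimated counts per gene, not normalized; 23.8% of values were not whole and were rounded. Mitochondrially encoded genes were not analysed here, and some members of the lists are counted but not reported by name.

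Groups followed the sample titles. A gene entered the test if any of the 6 libraries held a count above 5. The tool was edgeR 4.0.16 (R 4.3.3, limma 3.58.1): trimmed mean of M values scaling, quasi-likelihood test, Benjamini-Hochberg adjustment over all tested genes, threshold 0.05. The interaction was fitted over all 12 HepG2 libraries, whose scaling differs slightly. CPM are counts scaled to a common library size, with no prior; intervals are 95%. Replicate numbers were not used as pairs. The scripts were tested on simulated data. Named genes were the 10 rises and falls of smallest p, the 12 of largest change (all with at least 1 CPM in the higher group and no overlap), the genes of the study's question, the leading called members of each list in each direction, the 6 most positive and negative interactions (by the same limits, in each arm) and the 20 interaction genes of the described groups. Genes named as the ends or exceptions of a list and the 20 interaction genes were chosen after their values were seen. Members and lists were chosen with earlier results of these data known, so no test was run on any list. Alternatives were 3 other scalings, no filter, filterByExpr, DESeq2 1.42.0, a replicate block, a fit of all 12 libraries, each library left out and, added after seeing the data, ribosomal RNA genes left out.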

Additional observations from a re-analysis of the deposited data

Results flagged for a closer look

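The effect of estradiol differed between cells with and without CoCl2, by the interaction test in edgeR, for 967 genes, and the named ones are given here as the difference of the log2 effect, with CoCl2 minus without. Without CoCl2 replicate B, which had the highest share of ribosomal RNA gene counts, 1044 genes were called.

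Lower effects with CoCl2 were found for HIF targets, at -2.07 for PFKFB4, -1.75 for DDIT4, -1.61 for PPP1R3C, -1.12 for VEGFA, -1.30 for STC2 and -1.29 for RORA. Genes of the early and stress responses gave -2.68 for FOS, -1.72 for DUSP1, -1.37 for EGR1, -1.02 for ATF3, -1.54 for PPP1R15A, -1.72 for DDIT3, -1.04 for CDKN1A and -1.39 for BTG2. BTG2 turned from a log2 effect of 0.47 without CoCl2 to -0.91 with it. Genes among the strongest rises gave -1.52 for IGFBP1, -1.53 for CYP1A1, -1.15 for ERN1 and -0.93 for GDF15, so their rise was smaller with CoCl2, and the histone gene H2AC16 gave -1.96, a deeper fall.

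Among genes of low counts, KLRK1 had -4.13, PRICKLE1 -2.68, IL12RB2 -2.63, FOXD1 -2.39 and ESR1 -2.36. Positive differences were 4.81 for TCAP, 4.31 for CAPN8, 2.27 for ENPP7, 2.06 for ETNPPL and 1.66 for GPR162. The calls of CAPN8, TCAP, ETNPPL, GPR162, ENPP7, FOXD1, IL12RB2, PRICKLE1 and ESR1 were lost under at least 1 alternative. Higher effects with CoCl2 at better counts were 1.71 for SNHG4, 0.93 for HSPA8 and 1.42 for SGK1.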

How the results depend on the processing

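The number of genes called stayed within 1.5 times of 9860 under every alternative: 9862 with relative log expression scaling, 9872 with upper-quartile scaling, 9821 with library totals alone, 9993 with no filter, 9537 with filterByExpr, 9247 with DESeq2, 9367 with the replicate block, 10305 with all 12 libraries, 9952 without ribosomal RNA genes, and 8938 to 9973 with 1 library left out. Relative log expression called 50.2% higher and library totals 45.9%, against 49.4%. The interaction count, 967, ranged from 771 (replicate block) to 1286 (DESeq2), and from 678 to 1044 with 1 library left out. The check of single genes covered 294 genes, most of them picked for small p, large change or rank within a list. Of these, 285 kept direction and call in every setting. The others were ENPP7, PRICKLE1, KRT7, H19, NOTUM, HSPA6, PLAU, DLST and SLC22A9. Picking genes in that way favours stable calls, and other list members named in the text were not in this check. Same-lettered libraries did not deviate together (correlations of deviations -0.148, -0.0935 and 0.00594), so the block is no pairing, and not every sample correlated best with its own letter.

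Some list medians moved, and where the cause is not plain from fewer or more genes tested it was not tested. Library totals gave -0.58 for HIF targets, 0.73 for the ATF4 list, 0.030 for endoplasmic reticulum chaperones, -0.79 for heat shock, 1.57 for immediate early genes, 0.29 for NF-kB, -0.28 for NRF2, -0.71 for G2 and M, -0.62 for DNA repair, -0.88 for fatty acid and cholesterol synthesis, 0.13 for transcription machinery, 0.76 for Wnt and -0.12 for reference genes. No filter gave -0.36 for bile acid enzymes, 0.0023 for transporters (-0.12 before, 19 genes tested in place of 18), 0.81 for the ATF4 list, 0.25 for NF-kB, -0.65 for metallothioneins, 0.35 for aquaporins and -0.59 for iron. With filterByExpr the values were -0.86 for procoagulant, -0.58 for fibrinolysis, -0.31 for transporters, 0.31 for the HIF pathway and -0.83 for iron. NF-kB had 0.23 with the replicate block and 0.31 with all 12 libraries, where estrogen receptor targets turned from 0.13 to -0.20. DNA repair had -0.60 with upper-quartile scaling, -0.55 with all 12 libraries and -0.55 without ribosomal RNA genes. PROS1 over EEF2 had a log2 difference of -1.56, against -0.24 over GAPDH.

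With 1 library left out, medians ran from 0.35 to 0.51 for the HIF pathway, -0.25 to -0.14 for NRF2, -0.70 to -0.64 for G2 and M, -0.61 to -0.54 for DNA repair, -0.88 to -0.79 for fatty acid and cholesterol synthesis, -0.12 to 0.0060 for reference genes, -0.75 to -0.52 for complement, 0.060 to 0.13 for endoplasmic reticulum chaperones, 0.22 to 0.47 for NF-kB, -0.86 to -0.77 for G1 and S, -0.85 to -0.66 for bile acid enzymes, -0.53 to -0.48 for HIF targets, 0.76 to 0.84 for the ATF4 list, -0.74 to -0.57 for procoagulant, -0.43 to -0.27 for fatty acid oxidation, -0.56 to 0.00043 for fibrinolysis, 1.56 to 1.66 for immediate early genes and -1.08 to -0.81 for apolipoproteins, and 19 to 37 ribosomal protein genes were called. Promoter motifs were not run, and no sequence or coordinate is given. With 3 libraries a group, the exact test cannot go below 0.1, and genes under about 1 CPM rest on a few reads.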

Other observations

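Gene families not described above were counted by symbol against the 30.1% higher and 30.8% lower of all tested genes. Of 504 zinc finger genes with a ZNF symbol, many of them DNA-binding repressors, 220 were higher with estradiol in CoCl2-treated cells (43.6%) and 77 lower (15.3%), with a median log2 change of 0.26. Of 24 snoRNA host genes (SNHG), 15 were higher and 3 lower. Of 65 snoRNA genes themselves, 5 were called, with 5 higher and 0 lower and a median log2 change of 0.13. Over all tested genes 60.9% were called, so too few snoRNA genes were called for a contrast with their hosts. Genes of the proteasome, which degrades ubiquitinated proteins, were lower for 31 of 52 (median -0.38). Mitochondrial ribosomal protein genes were lower for 40 and higher for 12 of 84, and kinesin genes lower for 19 and higher for 7 of 39. Solute carriers stood near the background, with 93 higher and 94 lower of 301. Long intergenic noncoding RNA genes (LINC) were higher for 63 and lower for 47 of 257, and antisense genes higher for 90 and lower for 72 of 569.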
